A study of Mus musculus with 2 samples.

Results

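Nr4a2, Pitx3, En1, En2, Foxa1, Foxa2, Lmx1a, Lmx1b, Otx2 and Sox6 encode transcription factors that specify and maintain the dopaminergic neurons of the midbrain. They were taken by symbol from the gene tables of the series, where each symbol stood on 1 row, and make up 10 of the 32285 genes listed. The series holds 2 mouse libraries of the ventral tegmental area (VTA), the midbrain nucleus that sends dopaminergic axons to the accumbens and cortex. The library called WT comes from wild-type adult mice. The library called CCI comes from adult mice with chronic constriction injury (CCI) on the left sciatic nerve, used to produce lasting neuropathic pain. Their right sciatic nerve was exposed but not tied. The labels do not give the hemisphere sampled, the number of animals in a library, their exact age or the time after injury. The design text speaks of nuclei and the protocol of an enzymatic digestion with droplet 3' chemistry, so barcodes are called nuclei here as in the design text. Each group is 1 library, so a difference between WT and CCI describes these libraries and carries no test.

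In the embryo, the forkhead factors Foxa1 and Foxa2 and the LIM homeodomain factors Lmx1a and Lmx1b establish the floor plate domain from which midbrain dopaminergic neurons arise, and Otx2, En1 and En2 set the boundaries of midbrain and hindbrain. Nr4a2, an orphan nuclear receptor also called Nurr1, and Pitx3, a homeodomain factor, then switch on the genes for dopamine synthesis, storage and uptake, among them Th (tyrosine hydroxylase) and Slc6a3 (the dopamine transporter). In the adult midbrain several of these factors remain on. Sox6 is known as a marker of dopaminergic neurons of the substantia nigra and the adjoining lateral VTA, and Otx2 as a marker of the medial VTA.

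All 10 genes are protein coding. On build GRCm38 with the GENCODE vM21 annotation, En1 lies on chromosome 1 from 120602418 to 120607992 (plus strand) and Lmx1a on the same chromosome from 167689237 to 167848741 (plus). Chromosome 2 carries Nr4a2 from 57106830 to 57124003, Lmx1b from 33560965 to 33640511 and Foxa2 from 148042877 to 148046969, all on the minus strand. En2 lies on chromosome 5 from 28165694 to 28172166 (plus), Sox6 on chromosome 7 from 115470872 to 116038796 (minus), Foxa1 on chromosome 12 from 57540628 to 57546916 (minus), Otx2 on chromosome 14 from 48657677 to 48673819 (minus) and Pitx3 on chromosome 19 from 46135685 to 46148326 (minus). Their spans run from 4.09 kb for Foxa2 to 568 kb for Sox6. Otx2 shares 5112 bases with the antisense gene Otx2os1, and Sox6 shares 18872 bases with Gm45025 and 572 with Sox6os. Whether reads were counted by strand is not given in the sources used here, so reads from these partners could not be told apart.

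Promoter windows of 250 bases before a transcript start, from RefSeq on GRCm38.p6, were searched on both strands for 4 motifs that factors of these families are known to read. They were AAAGGTCA (the NBRE, read by Nr4a2 and its relatives), TAATCC (bicoid type, read by Otx and Pitx proteins), TGTTTAC (forkhead) and TAATTA (homeodomain, equal to its own reverse complement). Of 32851 such windows of mouse genes, 1.34% held the NBRE, 6.25% TAATCC, 3.17% TGTTTAC and 4.84% TAATTA. Windows were found for 9 of the 10 factors (not En2), 19 windows in all, and 5 of them, of Foxa1, Otx2 and Sox6, held a motif. Otx2 and Sox6 have several windows each. The share of all windows with any of the 4 motifs was not computed, so this count has no background beside it. The windows of Slc6a3, Th, Nr4a2, Pitx3, En1, Lmx1a and Lmx1b held none of the 4. The following windows are shown because each holds 1 of the motifs and belongs to the factor with the highest CPM in the dopaminergic neurons below (Sox6), the factor with the lowest (Otx2) and a dopamine-synthesis gene that was seen together with Nr4a2 (Ddc, aromatic amino acid decarboxylase). They are written 5′ to 3′ on the strand of the gene, with the motif in capitals.
Sox6 promoter, chr7:116031048-116031297, minus strand: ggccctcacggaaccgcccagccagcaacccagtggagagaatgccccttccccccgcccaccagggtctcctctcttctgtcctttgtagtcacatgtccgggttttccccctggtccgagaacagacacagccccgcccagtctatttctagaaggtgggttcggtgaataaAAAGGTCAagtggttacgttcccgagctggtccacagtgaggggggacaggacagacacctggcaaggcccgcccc
Ddc promoter, chr11:11898145-11898394, minus strand: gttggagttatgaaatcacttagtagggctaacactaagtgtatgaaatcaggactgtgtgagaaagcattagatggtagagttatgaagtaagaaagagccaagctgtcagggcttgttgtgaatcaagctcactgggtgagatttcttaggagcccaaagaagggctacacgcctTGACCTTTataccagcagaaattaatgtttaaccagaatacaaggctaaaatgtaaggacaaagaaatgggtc
Otx2 promoter, chr14:48667645-48667894, minus strand: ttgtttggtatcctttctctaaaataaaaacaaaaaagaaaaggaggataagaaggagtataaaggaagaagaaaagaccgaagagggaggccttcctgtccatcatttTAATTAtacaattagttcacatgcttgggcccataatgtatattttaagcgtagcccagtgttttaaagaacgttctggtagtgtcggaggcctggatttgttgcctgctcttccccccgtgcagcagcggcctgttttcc
The capitals mark the NBRE of Sox6 on the gene's strand, 76 bases before the start, the NBRE of Ddc on the opposite strand, 73 bases before the start, and TAATTA of Otx2, 141 bases before the start. A match of these letters is a description of the sequence and was not measured as a binding site.

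The deposited tables count unique molecular identifiers (UMIs), each standing for 1 captured RNA molecule. The CCI library was much deeper, with a median of 3652 UMIs per barcode against 975 in WT, and 54 barcodes occurred in both. After filtering and removal of doublets, 5957 WT neurons (median 1616 UMIs) and 6607 CCI neurons (median 6268) were kept. Levels are given as CPM, UMIs summed over a class in 1 library and scaled to a common total, with exact Poisson 95% intervals in parentheses. For shares of nuclei and for neurons split by Slc6a3 and Th, every nucleus was thinned at random to 1000 UMIs, which left 4818 WT and 6502 CCI neurons and left out 1139 and 105 shallower ones. All intervals cover counting error only, not the variation between animals.

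Sox6 was the factor with the most UMIs in neurons and was also strong in glia, while Pitx3 had 1 or 2 UMIs in the astrocytes or oligodendrocytes of either library. In neurons, Sox6 had 120 CPM in WT and 74.7 in CCI, Nr4a2 had 43.5 and 25.3, Lmx1a had 38.8 and 49.9, and Lmx1b had 36.1 and 30.5. En1 had 21.3 and 10.8 CPM, En2 10.2 and 3.08, and Foxa1 6.51 and 3.04. Otx2 (5.23 and 2.46), Pitx3 (4.59 and 1.85) and Foxa2 (4.40 and 1.78) were the scarcest, with 48 to 57 UMIs over all WT neurons. Of the 10 factors, Lmx1a was the 1 whose summed neuronal level was higher in the CCI library. These sums carry the share of dopaminergic neurons in each library, which differed as given below.

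The order of the factors changes when levels are taken per length of the gene, introns included. Divided by the span of the gene in kb, En1 led in neurons with 3.82 CPM per kb in WT and 1.94 in CCI, followed by Nr4a2 with 2.53 and 1.47. En2 (1.57 and 0.476), Foxa2 (1.08 and 0.436) and Foxa1 (1.04 and 0.483) came next. Sox6, the highest by raw CPM, was the lowest per kb with 0.211 and 0.132. This order rests on the choice of span. With 3' chemistry a molecule counts once whatever its length, and the use of intronic reads is not given. Exons cover 14.8 kb of Sox6 and 2.62 kb of En1, and the order per exon length was not computed.

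**Figure D1:**
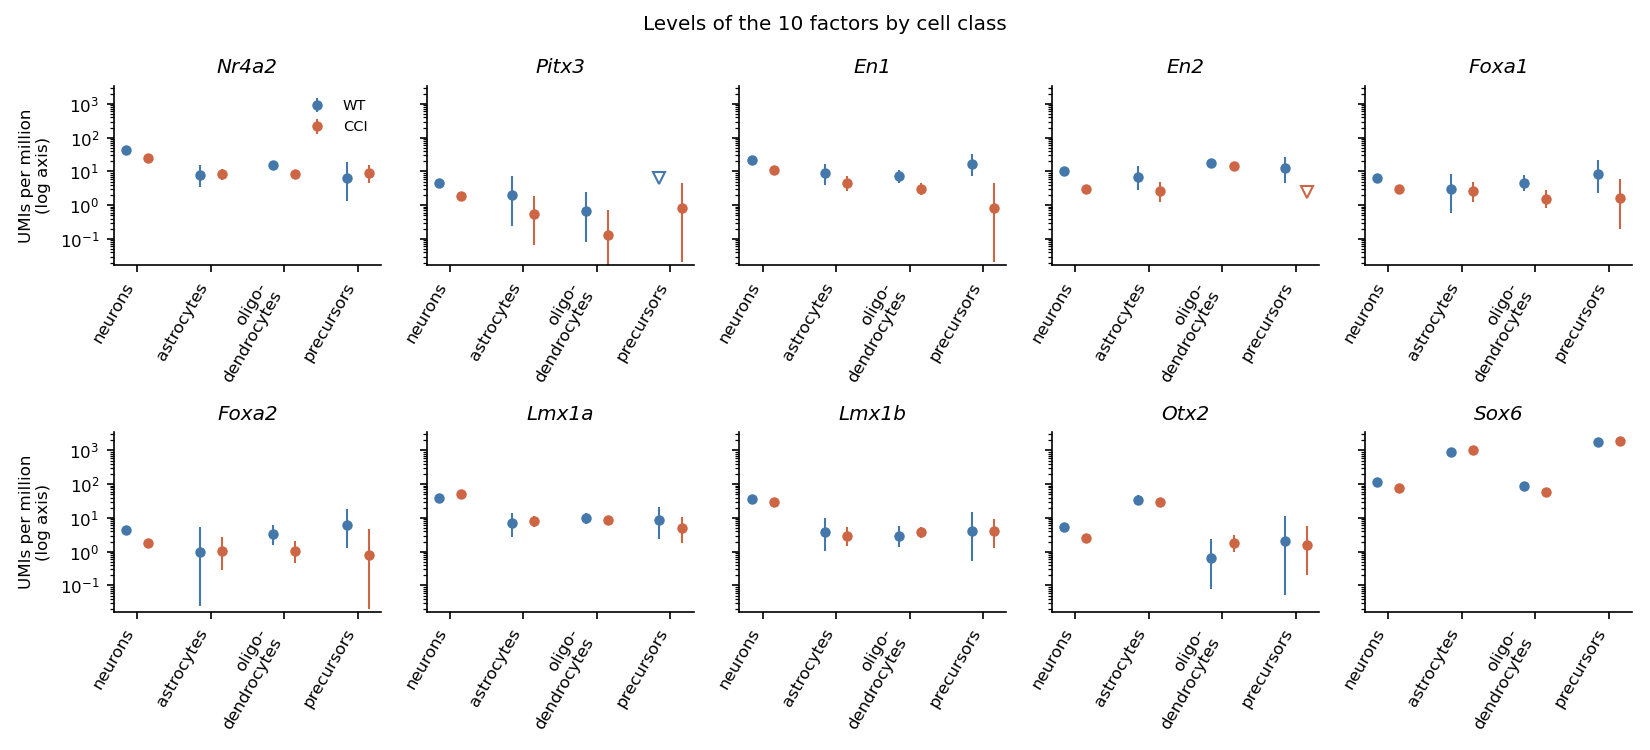
Level of each factor in neurons, astrocytes, oligodendrocytes and oligodendrocyte precursors (labelled precursors), in CPM on a log axis, for the WT (blue) and CCI (orange) libraries. Points are sums over a class, bars are exact Poisson 95% intervals, and open triangles stand at the level of 3 UMIs where none was counted; Sox6 is highest in the precursors and Otx2 in astrocytes.

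In glia, 3 factors had a pattern of their own. Sox6, which is known to hold back differentiation of oligodendrocyte precursors, reached 1772 CPM (1654 to 1897) in the WT precursors and 1951 (1874 to 2031) in the CCI precursors, and 915 and 1053 CPM in astrocytes. At 1000 UMIs, 82.0% of WT and 81.5% of CCI precursors had a Sox6 UMI, and 59.5% and 60.4% of astrocytes, against 8.43% and 5.57% of neurons and 6.28% and 5.76% of oligodendrocytes. The WT shares of glia cover only the deeper nuclei, 205 of 1271 astrocytes and 541 of 3844 oligodendrocytes. In both libraries precursors were above astrocytes, and both stood above neurons and oligodendrocytes. By CPM the neurons were above the oligodendrocytes (85.7 in WT and 60.7 in CCI), but the CCI shares of these classes did not follow that order, so none is read from them.

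Otx2 was higher in astrocytes than in neurons, with 34.3 CPM (23.9 to 47.7, 35 UMIs) in WT and 30.6 (25.3 to 36.7, 115 UMIs) in CCI. Otx2 had 0.667 CPM in WT oligodendrocytes and 1.82 in CCI oligodendrocytes. The paralogs En1 and En2 were divided unequally between classes: En2 made up 32.4% (27.4 to 37.6) of the summed En1 and En2 UMIs in neurons of the WT library and 22.1% (19.0 to 25.5) in those of the CCI library. In oligodendrocytes the En2 share was 71.1% (59.5 to 80.9) in WT and 82.2% (74.7 to 88.3) in CCI, with 54 and 111 En2 UMIs, and those intervals do not meet the neuronal ones. Pitx3 had 2 UMIs in 3844 WT oligodendrocytes (0.667 CPM) and 1 UMI in 3691 CCI oligodendrocytes (0.130 CPM).

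Neurons were then split by whether they held a UMI of Slc6a3 or Th, to ask which factors follow the dopaminergic phenotype. At 1000 UMIs, 511 of 4818 neurons did in the WT library (10.6%, 9.75 to 11.5), and in the CCI library 275 of 6502 (4.23%, 3.75 to 4.75). Without thinning the shares were 14.8% and 11.4%. Of oligodendrocytes, which should lack both genes, 4.81% in WT and 3.1% in CCI held such a UMI at the same depth, and the part of free RNA in droplets in these was not tested. A stricter class with at least 2 such UMIs took 3.01% of WT and 1.09% of CCI neurons, but 0.185% and 0.0559% of oligodendrocytes. In unthinned data the median depth of oligodendrocytes was 714 UMIs in WT and 1916 in CCI. Shares of oligodendrocytes at 1000 UMIs therefore cover 541 of 3844 nuclei in WT, the deeper ones, and 3576 nuclei in CCI.

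In the WT library, 8 of the 10 factors were over 2-fold higher in neurons with Slc6a3 or Th UMIs than in neurons without. Over all genes with at least 20 UMIs in these neurons, 4.95% were. Counting only factors that reached 20 UMIs, 7 of 9 were over 2-fold higher, with a median log2 ratio of 1.92 against -0.10 over all genes. In the CCI library 8 of 10 factors were also over 2-fold higher, against 6.62% of all genes, and 6 of the 7 with at least 20 UMIs, with a median of 2.50 against -0.12. The exceptions were Lmx1a and Otx2 in both libraries.

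Among the factors that act in postmitotic neurons, Nr4a2 had 74 UMIs in the 511 WT neurons with Slc6a3 or Th UMIs (145 CPM) and 132 in the 4307 without (30.6 CPM), a log2 ratio of 2.24 (1.81 to 2.66). In CCI it had 31 and 123 UMIs (113 and 19.8 CPM), a log2 ratio of 2.51 (1.89 to 3.09). Nr4a2 was seen in 12.9% of WT neurons with these UMIs, 2.69% of those without and 2.03% of oligodendrocytes. In CCI the corresponding shares were 10.9%, 1.89% (1.57 to 2.27) and 0.867% (0.590 to 1.23). The share without was thus above that of oligodendrocytes in CCI, whereas in WT the intervals overlap. Of the 132 WT UMIs in neurons without, 57 lay in the dopaminergic subclusters described below.

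Pitx3, required for the survival of nigral dopaminergic neurons, had 16 UMIs with and 10 without in WT, a log2 ratio of 3.75 (2.52 to 5.05). In CCI it had 2 and 7 UMIs, a log2 ratio of 2.69 (-0.61 to 5.09), so the depth did not fix its direction there. With the CCI library alone thinned to 5000 UMIs, a depth that was added after the data had been seen and that kept 473 neurons with and 3942 without, Pitx3 had 28 and 11 UMIs and a log2 ratio of 4.41 (3.36 to 5.56).

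The engrailed genes were both higher in neurons with Slc6a3 or Th UMIs, and En1 had the highest ratio of the 10 factors in CCI. En1, which protects adult dopaminergic neurons from degeneration, had 35 UMIs with and 54 without in WT (68.5 and 12.5 CPM) and a log2 ratio of 2.45 (1.79 to 3.09). In CCI it had 28 and 31 UMIs (102 and 4.98 CPM) and a log2 ratio of 4.35 (3.56 to 5.14). At 5000 UMIs the CCI ratio of En1 was 4.84 (4.39 to 5.32), the highest of the 10. En2 had log2 ratios of 1.92 (0.85 to 2.91) in WT and 2.74 (0.94 to 4.23) in CCI, on 13 and 5 UMIs in the neurons with Slc6a3 or Th UMIs.

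The floor plate factors divided. Lmx1b had 47 UMIs with and 106 without in WT (92.0 and 24.6 CPM, log2 ratio 1.90, 1.37 to 2.41) and 26 and 130 in CCI (94.5 and 20.9 CPM, log2 ratio 2.18, 1.51 to 2.79). Its paralog Lmx1a had 26 and 163 UMIs in WT (50.9 and 37.8 CPM), a log2 ratio of 0.43 (-0.23 to 1.03), and 24 and 292 in CCI (87.3 and 46.9 CPM), a log2 ratio of 0.90 (0.23 to 1.5). Lmx1a was thus the less concentrated of these paralogs, and at 5000 UMIs in CCI its ratio was 0.73 (0.49 to 0.96), below that of Lmx1b at 2.12 (1.88 to 2.35).

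Foxa1 and Foxa2 were scarce, with 3 to 8 UMIs in the neurons with Slc6a3 or Th UMIs of either library. Foxa1 had log2 ratios of 1.49 (0.13 to 2.69) in WT and 2.76 (0.26 to 4.72) in CCI. Foxa2 had 2.56 (0.93 to 4.10) in WT and 2.50 (0.46 to 4.13) in CCI. At 5000 UMIs in CCI the intervals narrowed to 1.70 to 3.19 for Foxa1 and 2.13 to 4.15 for Foxa2.

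Of the subtype factors, Sox6 was higher in neurons with Slc6a3 or Th UMIs and the direction of Otx2 was not fixed. Sox6 had 192 UMIs with and 342 without in WT (376 and 79.4 CPM), a log2 ratio of 2.24 (1.98 to 2.50), and 84 and 441 in CCI (305 and 70.8 CPM), a log2 ratio of 2.11 (1.75 to 2.45). It was seen in 25.8% and 21.5% of neurons with these UMIs and in 6.36% and 4.87% of those without, the latter close to its share in oligodendrocytes. Otx2 had 2 UMIs with and 20 without in WT, a log2 ratio of -0.25 (-3.39 to 1.79), and 0 and 19 in CCI. A count of 0 in 275 nuclei allows a share of up to 1.33% (exact upper limit), and 3 UMIs in place of 0 would give a log2 ratio of at most 1.84. At 5000 UMIs Otx2 had 10 and 46 UMIs and a ratio of 0.86 (-0.29 to 1.86), so no enrichment of Otx2 was detectable at this depth.

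**Figure D2:**
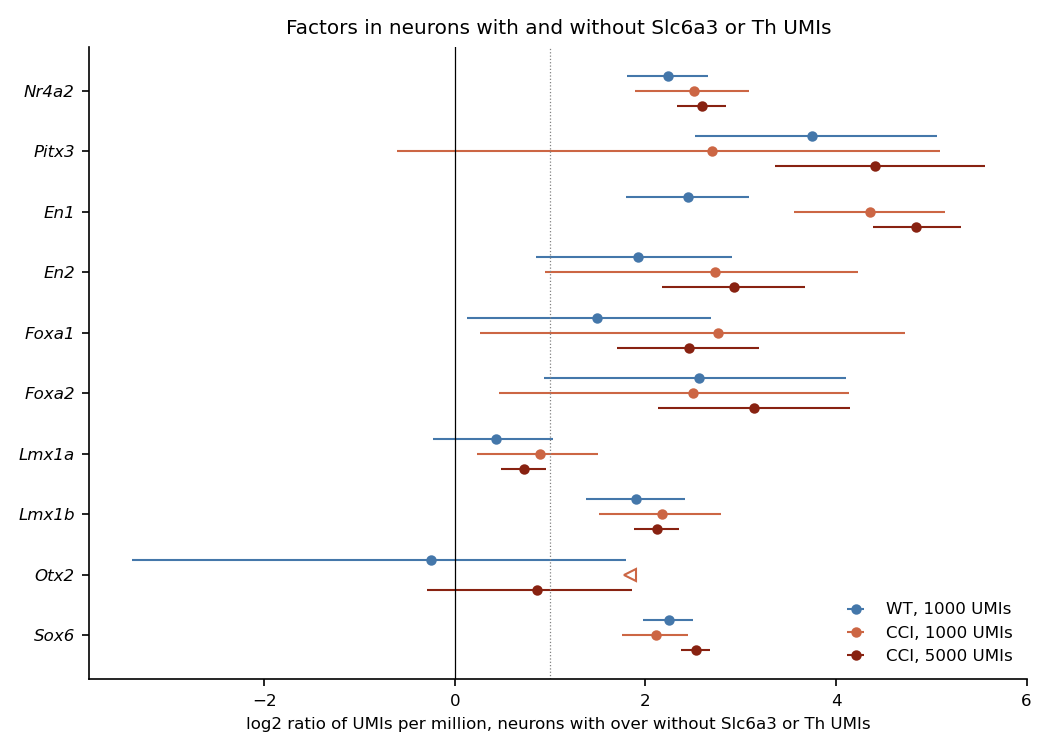
Log2 ratio of the level of each factor in neurons with over neurons without a Slc6a3 or Th UMI, for WT and CCI at 1000 UMIs per nucleus and for CCI at 5000. Points are ratios with exact conditional 95% intervals, the arrowhead is an upper bound where no UMI was counted, and the dotted line marks 2-fold. The points of all factors but Lmx1a and Otx2 lie right of that line, with wide intervals for Pitx3, Foxa1 and Foxa2 at 1000 UMIs.

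Genes of the dopaminergic programme went with the factors. Of 14 genes chosen as known targets or markers, 13 reached 20 UMIs in each library, and 12 in WT and 11 in CCI were over 2-fold higher in neurons with Slc6a3 or Th UMIs, none lower. Their median log2 ratios were 2.51 and 3.36. The vesicular monoamine transporter Slc18a2 had log2 ratios of 2.75 and 3.61, Ddc 2.66 and 3.50, the neurotrophic factor receptor Ret 2.51 and 2.61, the potassium channel gene Kcnj6 2.05 in both, and the receptor subunit Gfra1 1.19 and 1.74.

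Other factors of midbrain dopaminergic development were less uniform. Of 18 listed, 11 reached 20 UMIs in WT and 10 in CCI, and 3 in each library were over 2-fold higher and 2 lower. The homeodomain cofactor Pbx3 had log2 ratios of 1.40 in WT and 1.47 in CCI. Ebf1 (-0.08 and 0.10) and Bcl11a (0.07 and 0.04) had similar levels on either side, Ebf3 had 0.70 and 0.85, and Ebf2 had -0.80 and -1.49. None of the 5 measured factors of neighbouring neurons was over 2-fold higher in either library, and 4 in WT and 2 in CCI were over 2-fold lower. Pax5, a factor of midbrain GABAergic lineages, had -1.31 (-2.78 to -0.14) in WT on 6 UMIs. In CCI it had -1.41 (-6.73 to 1.13) on 1 UMI, so its direction there was not fixed. Foxp2, the most abundant of the list, went the other way, with 0.46 (0.25 to 0.66) and 0.86 (0.58 to 1.12).

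Among subtype genes, the retinaldehyde dehydrogenase Aldh1a1 (2.27 and 3.36) and the calcium-binding protein gene Calb1 (1.08 and 1.02) were higher in both libraries. The neuropeptide gene Cck had a log2 ratio of 1.59 in WT and 0.01 (-1.46 to 1.17) in CCI, on 25 and 6 UMIs, and at 5000 UMIs in CCI it had 1.13 (0.79 to 1.45) on 100 UMIs. The vesicular glutamate transporter Slc17a6 (-1.26 and -1.63), the GABA-synthesis gene Gad2 (-1.5 and -0.91) and the vesicular GABA transporter Slc32a1 (-1.31 and -1.38) were lower. The 5 oligodendrocyte markers Mbp, Mog, Mag, Mobp and Cldn11 together had 250.5 CPM with and 296 without in WT, and 142 with and 131 without in CCI.

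Levels of the factors were also compared across neurons with 0, 1, 2 and 3 or more Slc6a3 and Th UMIs. Nr4a2 had 30.6, 107, 273 and 174 CPM in WT and 19.8, 83.3, 209 and 179 in CCI. En1 had 12.5, 54.6, 111 and 87.0 CPM in WT and 4.98, 88.2, 140 and 143 in CCI. Both had a higher CPM with 2 UMIs than with 1. The intervals were apart for Nr4a2 in WT (75.8 to 146 and 180 to 397) and overlapped for Nr4a2 in CCI and for En1 in both libraries. The last class held 46 WT and 28 CCI nuclei. Sox6 had 79.4, 339, 414 and 587 CPM in WT and 70.8, 319, 279 and 250 in CCI, with its largest step between 0 and 1 UMI in both. From 1 UMI on, its intervals overlap within each library. In CCI the classes with 2 and with 3 or more UMIs held 12 and 7 Sox6 UMIs.

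The neurons were also clustered without using the 10 factors, Slc6a3 or Th, so that the factors could be read against groups that did not rest on them. Of 30 subclusters, n2 (758 WT and 112 CCI nuclei) and n17 (229 CCI nuclei, none from WT) carried the dopaminergic markers Slc18a2, Ddc, Slc6a3, Th, Ret and Drd2. Slc6a3 and Th were thus used in naming these subclusters, though not in forming them. The following shares are therefore in part set by the naming. Together n2 and n17 held 384 of the 511 WT neurons with Slc6a3 or Th UMIs (75.1%) and 187 of the 275 CCI neurons (68%). Of neurons with at least 2 such UMIs they held 92.4% and 93.0%. Conversely 55.7% of the thinned WT and 54.8% of the thinned CCI nuclei of these subclusters had such a UMI, so at 1000 UMIs the absence of Slc6a3 and Th missed many dopaminergic nuclei.

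Within the dopaminergic subclusters, the more abundant factors were present at similar levels whether or not a Slc6a3 or Th UMI had been caught. Sox6 had 474 CPM (408 to 548) with and 541 (462 to 630) without in WT, and 380 (297 to 479) with and 403 (309 to 516) without in CCI. En1 had 83.3 with and 95.1 without in WT, and 144 with and 123 without in CCI, with overlapping intervals. Nr4a2 had 180 and 187 CPM in WT, and 160 and 117 in CCI. The scarce factors varied more, with overlapping intervals. Pitx3 had 16 UMIs in 384 WT nuclei with (41.7 CPM, 23.8 to 67.7) and 4 in 305 without (13.1 CPM, 3.57 to 33.6), but in CCI 2 UMIs with (10.7 CPM, 1.30 to 38.6) and 5 without (32.5 CPM, 10.5 to 75.8), the opposite direction. Otx2 in WT had 2 UMIs with (5.21 CPM) and 5 without (16.4 CPM).

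Outside the dopaminergic subclusters the factors other than Sox6 had 5 or fewer UMIs each in the neurons with a Slc6a3 or Th UMI. Among 88 such CCI neurons, En1, Nr4a2 and Lmx1b had 1 UMI each (11.4 CPM, 0.288 to 63.3), and Pitx3 had 0, which allows up to 34.1 CPM at 3 UMIs. Among 127 such WT neurons, Nr4a2 and Lmx1b had 5 UMIs each (39.4 CPM, 12.8 to 91.9) and En1 had 3. Sox6 had 10 UMIs in these WT neurons (78.7 CPM, 37.8 to 145) and 13 in the CCI ones (148 CPM, 78.7 to 253), and the CCI interval lies above that of the CCI neurons of other subclusters without these UMIs (62.4 CPM, 56.3 to 69.0). In neurons of other subclusters without these UMIs, En1 had 6.25 CPM in WT and 1.98 in CCI, Nr4a2 18.7 and 17.3, Sox6 44.2 in WT, and Lmx1a 35.5 and 45.6. These neurons held 277 of the 292 Lmx1a UMIs that were counted in thinned CCI neurons without Slc6a3 or Th UMIs.

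Lmx1a reached its highest levels outside the subclusters named dopaminergic, in n10, n6 and n3. On the marker lists used for naming, n10 scored 0.297 as GABAergic and 0.272 as dopaminergic. The dopaminergic scores of n2 and n17 were 0.785 and 0.869. That n10 is free of dopaminergic neurons is therefore not claimed. In n10, led by Ebf2 and Ebf3 and left unnamed, Lmx1a had 217 CPM (171 to 273) in 207 WT nuclei and 172 (144 to 204) in 109 CCI nuclei, against 68.9 (57.4 to 82.0) in WT n2, 162 (137 to 191) in CCI n2 and 79.2 (68.6 to 91.0) in CCI n17. The CCI nuclei of n2 were thus level with n10, while those of WT n2 and CCI n17 were lower. In n6, led by genes such as Tac1 and Sema3a, it had 175 and 189 CPM, and in n3 112 and 174. Lmx1b went with it in n10 (135 and 105 CPM), n6 (60.9 and 105) and n3 (44.3 and 47.3), and its highest values were 136 CPM in WT n2, level with n10, and 155 in CCI n17. Since Lmx1a itself is among the leading genes of n3, n6 and n10, these levels are descriptions.

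Subcluster n10 carried several factors of the set at intermediate levels. Nr4a2 had 82.2 CPM in WT and 63.5 in CCI there, En1 49.9 and 32.4, and En2 29.3 and 15.5. Foxa1 had 0 UMIs in WT n10 and 8 in CCI n10 (10.4 CPM), and Sox6 had 67.5 and 23.3 CPM, well under its dopaminergic level. In n6 and n3 the engrailed gene En1 was near 0, with 4.06 and 1.93 CPM in WT and 1.80 and 3.78 in CCI. Nr4a2 was low in n6 (8.13 and 4.31 CPM) and intermediate in n3 (36.6 and 56.8).

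Nr4a2 also had 45 CPM in WT and 39.4 in CCI in n11, whose leading genes include Slc17a7 and C1ql3, and 51.9 and 48.3 in n21. Sox6 reached 842 CPM (778 to 910) in n20, led by Pax3 and named GABAergic from its markers, which held 120 CCI nuclei and 1 WT nucleus; Nr4a2, Pitx3, Foxa1, Foxa2, Lmx1b and Otx2 had no UMI there. A subcluster filled by 1 library cannot be compared between them. Otx2 had 20 UMIs in WT n0 (9.16 CPM) and 32 in CCI n0 (8.09 CPM), a GABAergic subcluster whose leading genes include Otx2os1, the gene that overlaps Otx2. Subcluster n16, with medians of 564 and 842 UMIs and haemoglobin and myelin genes in the lead, stayed unnamed.

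In neurons without Slc6a3 or Th UMIs, Lmx1a and Lmx1b had lower CPM in nuclei with GABAergic genes than in nuclei with Slc17a6. With a Slc17a6 UMI and none of Gad1, Gad2 or Slc32a1, Lmx1a had 41.3 CPM (24.5 to 65.2) in WT and 57.7 (41.8 to 77.7) in CCI. With a UMI of the latter genes only, it had 20.8 (11.7 to 34.4) and 13.2 (7.23 to 22.2). The intervals overlap in WT and do not in CCI. Lmx1b had 22.9 and 22.8 CPM against 9.72 and 5.67, and Sox6 was the reverse in CCI, with 34.9 (22.8 to 51.1) against 69.9 (54.9 to 87.8).

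**Figure D3:**
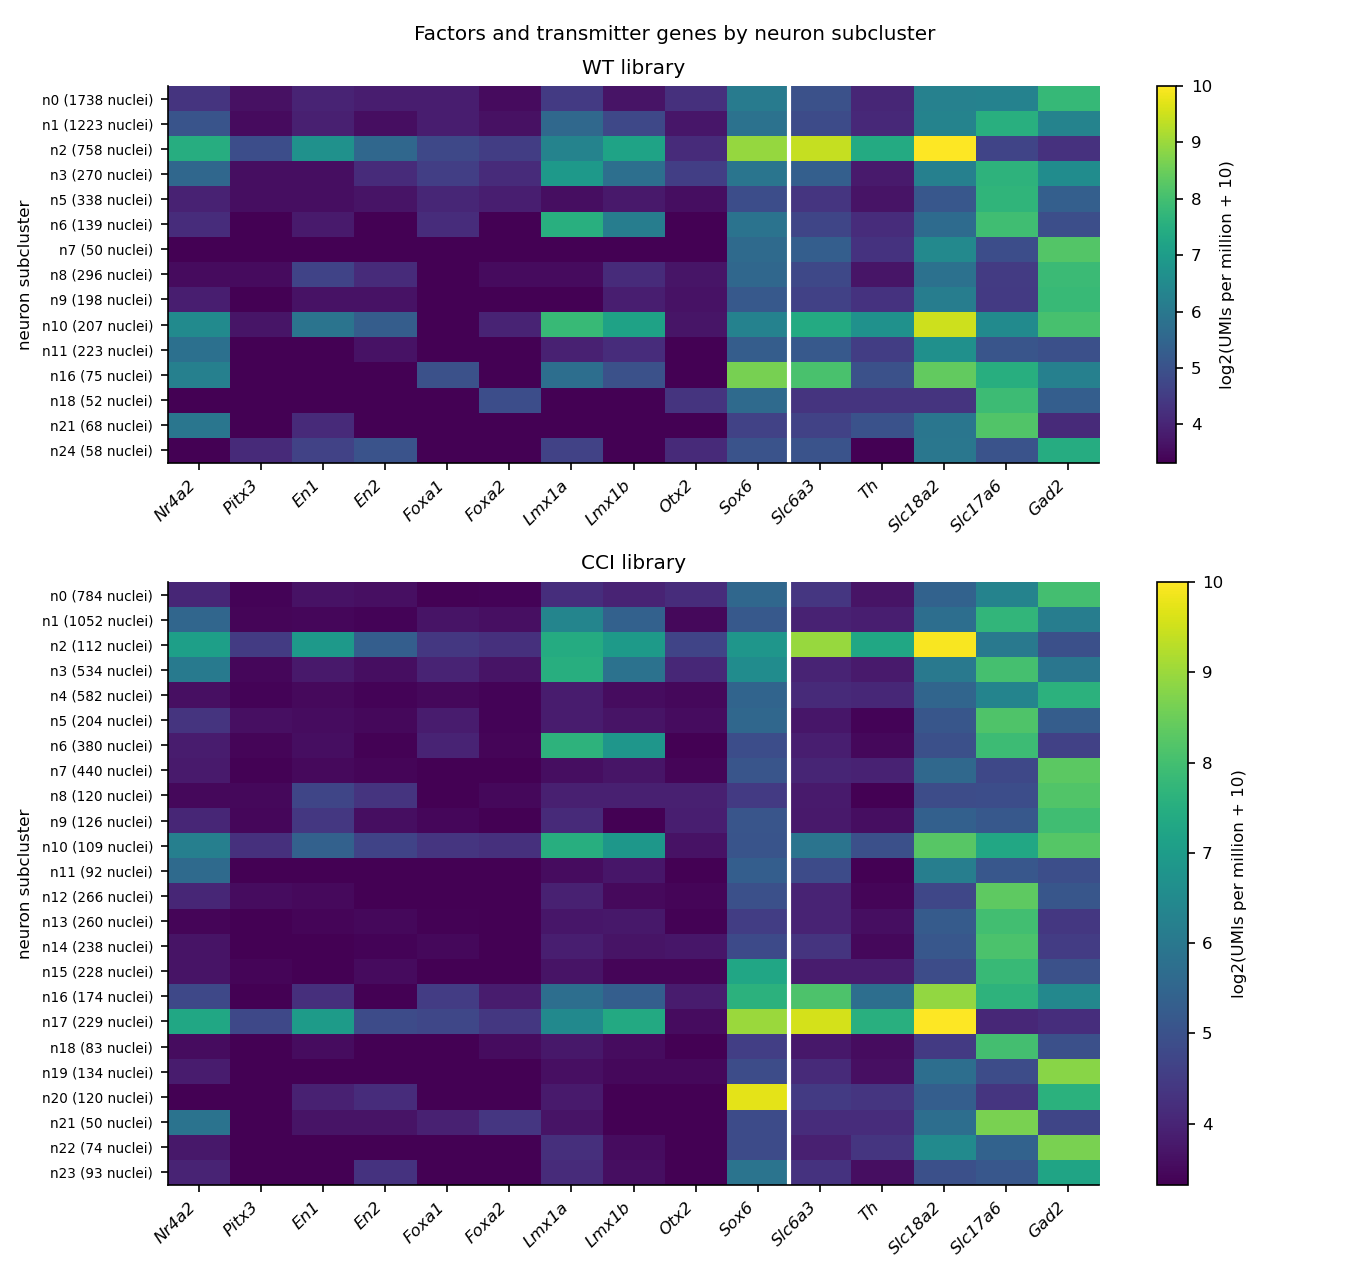
Level of the 10 factors and of Slc6a3, Th, Slc18a2, Slc17a6 and Gad2 in neuron subclusters with at least 50 nuclei, as log2(CPM + 10), in the WT (top) and CCI (bottom) libraries. The rows n2 and n17 carry most of the factors together, n3, n6 and n10 carry Lmx1a and Lmx1b, and n20 in CCI carries Sox6 with few or no UMIs of the others.

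Across subclusters with at least 50 nuclei (15 in WT, 24 in CCI), the genes most like each factor were sought among 6740 candidates by Pearson's r of log2(CPM + 10), ranked by the lower of the libraries' values. These r describe points that share libraries and depth and carry no test. Lmx1a and Lmx1b were each other's nearest gene, with r of 0.895 in WT and 0.948 in CCI, and both were next to Ntn1, which encodes the guidance cue netrin (0.813 and 0.751 with Lmx1a, 0.919 and 0.825 with Lmx1b). En2 was nearest to En1 (0.892 and 0.868). Among the genes nearest to En1 were Fam184a (0.845 and 0.849) and Gpr158 (0.797 and 0.820).

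Nr4a2 was nearest to Adamtsl1 (0.872 and 0.845), Ddc (0.868 and 0.837) and Mob3b (0.799 and 0.808). Sox6 had looser neighbours, Plce1 (0.737 and 0.692), Phip (0.722 and 0.661) and the neurokinin receptor gene Tacr3 (0.854 and 0.654). For Lmx1a the next gene was Nxn (0.708 and 0.703), for Lmx1b Slc10a4 (0.764 and 0.753) and for En2 Prkca (0.733 and 0.721). Pitx3, Foxa1, Foxa2 and Otx2 had too few UMIs for this ranking.

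The dopaminergic nuclei of the CCI library were split between n2 (112 nuclei) and n17 (229), which allowed the factors to be described within the dopaminergic class. Sox6 had 499 CPM (472 to 528) in n17 and 103 (82.9 to 126) in n2, a log2 ratio of n2 over n17 of -2.28 (-2.60 to -1.97). Otx2 was the reverse, with 14 UMIs in n2 (15.6 CPM, 8.56 to 26.2) and 4 in n17 (1.59 CPM, 0.434 to 4.08), a ratio of 3.30 (1.63 to 5.36). Lmx1a had 162 CPM in n2 and 79.2 in n17 (ratio 1.03, 0.71 to 1.35).

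The other factors differed less between these subclusters. Lmx1b had 114 CPM in n2 and 155 in n17 (-0.45, -0.77 to -0.13), Nr4a2 125 and 148 (-0.24, -0.56 to 0.07) and En1 112 and 117 (-0.06, -0.40 to 0.27). En2 had 30.2 and 18.7 CPM (0.69, -0.05 to 1.40). Pitx3, Foxa1 and Foxa2 had 8 to 11 UMIs in n2, and their intervals include 0.

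The genes set beside the factors here were picked after their values were seen and are not all that differed. Higher in n17, as Sox6 was, were Kcnj6 (1280 CPM against 452 in n2), Ndnf (112 against 26.8), Satb1 (302 against 127) and Aldh1a1 (232 against 171). So were Drd2 (355 against 186), Pbx3 (1076 against 696) and Ddc (915 against 729). Tacr3, named above among the genes nearest to Sox6, went the other way, with 120 CPM in n2 and 83.2 in n17 (log2 ratio of n2 over n17 0.52, 0.17 to 0.87). Others higher in n2, as Otx2 was, were Calb1 (159 CPM against 66.5 in n17), Slc17a6 (54.8 against 6.77), Cck (118 against 31.4), Lpl (31.3 against 5.17) and Otx2os1 (112 against 11.9). Bcl11a (179 against 64.9), Foxp2 (787 against 453) and Gad2 (21.2 against 8.36) were higher in n2 as well. Slc6a3 had 492 CPM in n2 and 743 in n17. The 10 factors and Slc6a3 were left out of the clustering. The other genes were open to it, so their levels describe the subclusters. The 5 oligodendrocyte markers summed to 92.8 CPM in n2 and 65.7 in n17, with 3 of 5 higher in n2 and none at 0, and their part in the difference was not tested.

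**Figure D4:**
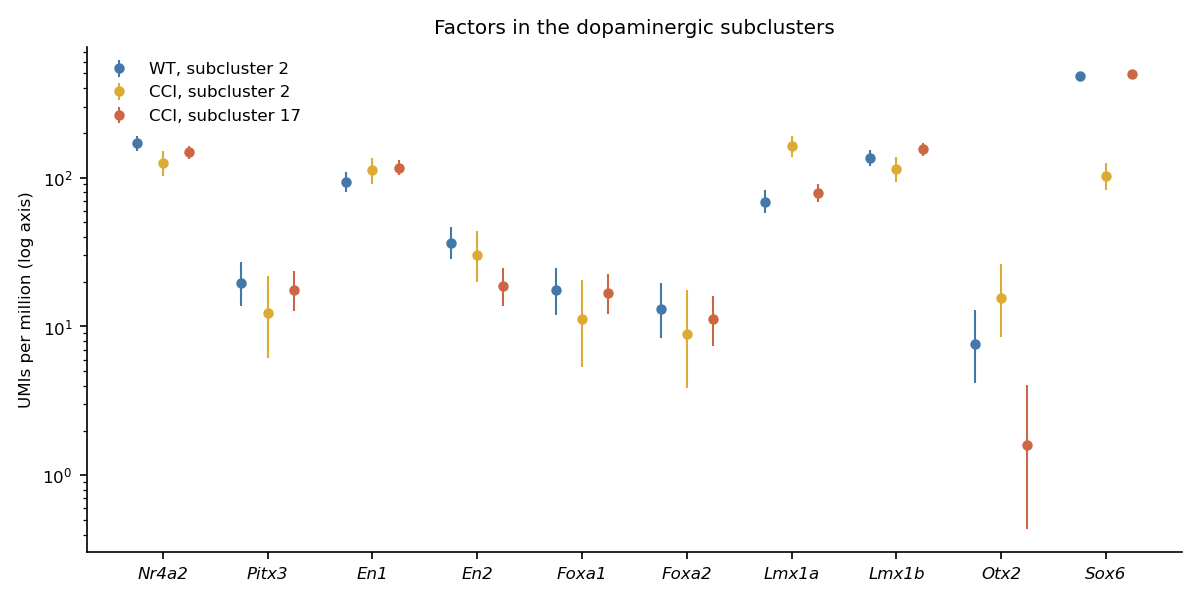
Level of each factor in the dopaminergic subclusters n2 and n17, in CPM on a log axis, with exact Poisson 95% intervals. The CCI nuclei of n2 are low in Sox6 and high in Otx2 and Lmx1a beside the CCI nuclei of n17, and the WT nuclei of n2 have a Sox6 level close to that of n17.

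Levels of the factors in neurons with Slc6a3 or Th UMIs were then set side by side between the libraries at 1000 UMIs. Of the 10 factors, 2 were past 1.5-fold in either direction, against 23.5% of all genes with at least 20 UMIs, a share near the background. Of the 5 factors with at least 20 UMIs, 1 was. Slc6a3 (log2 CCI over WT 0.10) and Th (-0.13) themselves had similar levels in both.

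Pitx3 was counted 16 times in WT (31.3 CPM) and 2 times in CCI (7.27 CPM), a log2 ratio of -2.11 (-5.27 to -0.02). Lmx1a had 26 and 24 UMIs (50.9 and 87.3 CPM), a ratio of 0.78 (-0.08 to 1.64), and En1 35 and 28 (68.5 and 102 CPM), a ratio of 0.57 (-0.20 to 1.33). Nr4a2 (-0.36, -1.02 to 0.26), Lmx1b (0.04, -0.71 to 0.76) and Sox6 (-0.30, -0.69 to 0.08) had intervals that include 0, as did En2, Foxa1 and Foxa2, and Otx2 had 2 and 0 UMIs, which gives no ratio. The count past 1.5-fold depended on the split, and was 5 with at least 2 Slc6a3 and Th UMIs, 5 with Slc6a3 alone, 6 with Th alone, 5 without thinning and 4 with doublets kept. At this depth no factor but Pitx3 had an interval clear of 0, and that of Pitx3 ends next to it.

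The comparison was repeated over all nuclei of the dopaminergic subclusters with all their UMIs, a choice made after the data had been seen, since n2 and n17 hold 758 WT and 341 CCI nuclei. Different subclusters hold most nuclei of the libraries, n2 in WT and n17 in CCI. Here 1 of the 10 factors was past 1.5-fold, against 18% of all genes, which is not above the background. It was En2, with 36.6 CPM in WT and 21.7 in CCI (67 and 74 UMIs, log2 ratio -0.75, -1.25 to -0.26). Pitx3 had 19.7 and 16.1 CPM (-0.29, -0.92 to 0.36), an interval that includes 0 on 36 and 55 UMIs. In neurons with Slc6a3 or Th UMIs without thinning it had 35 and 58 UMIs (16.8 and 8.88 CPM) and a ratio of -0.92 (-1.55 to -0.27). Whether Pitx3 was lower in CCI thus depended on the nuclei compared. In those unthinned neurons, 884 in WT and 755 in CCI, Slc6a3 (-0.78) and Th (-0.68) were lower in CCI too. So were Sox6 (-0.74) and Nr4a2 (-0.68), whereas Lmx1a had 0.26 (-0.02 to 0.54). The lower value was therefore not particular to Pitx3.

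Over all nuclei of the dopaminergic subclusters, Lmx1a had 68.9 CPM in WT and 101 in CCI (0.55, 0.25 to 0.86) and En1 94.1 and 115 (0.29, 0.03 to 0.56). Nr4a2 had 170 and 142 CPM (-0.26, -0.47 to -0.05) and Sox6 482 and 395 (-0.29, -0.41 to -0.16). Lmx1b had 136 and 144 CPM (0.08, -0.14 to 0.31), and Foxa1 (-0.20), Foxa2 (-0.31) and Otx2 (-0.54) had intervals that include 0. The values of Lmx1a and Sox6 in CCI depend on the subclusters: in n17 alone Sox6 had 499 CPM and Lmx1a 79.2, both within 1.5-fold of WT n2.

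In neurons without Slc6a3 or Th UMIs, 4 of the 10 factors were lower in CCI with an interval clear of 0 and 1 was higher. En1 had a log2 ratio of CCI over WT of -1.33 (-2.02 to -0.67), En2 of -1.30 (-2.26 to -0.39), Foxa1 of -1.79 (-3.02 to -0.68) and Nr4a2 of -0.63 (-1.0 to -0.27), whereas Lmx1a had 0.31 (0.03 to 0.59). The intervals of Pitx3 (-1.05, -2.68 to 0.49), Foxa2 (0.15, -1.08 to 1.45), Otx2 (-0.61, -1.59 to 0.38), Lmx1b and Sox6 include 0. In the same direction, the WT neurons without these UMIs held 305 nuclei of the dopaminergic subclusters among 4307 and the CCI neurons 154 among 6227. The summed oligodendrocyte markers were likewise lower in CCI, at 142 CPM against 250.5 in neurons with Slc6a3 or Th UMIs, with 4 of 5 markers lower and none at 0. In the dopaminergic subclusters they had 268 CPM in WT and 72.8 in CCI. The part of these markers, of library depth and of free RNA in the differences between libraries was not tested.

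Co-detection was counted for the 45 pairs of factors at equal depth, as the number of nuclei with a UMI of both against the number that the separate shares would give if the factors fell on nuclei independently. Only pairs with at least 5 such nuclei expected were read. The share of other gene pairs above the expected number was not computed, so the counts are not read as particular to these factors. In all WT neurons at 1000 UMIs, 5 of 6 pairs were above the expected number with an exact interval clear of it. Nr4a2 and Sox6 shared 43 nuclei where 15.3 were expected (ratio 2.80, 2.03 to 3.78), Nr4a2 and Lmx1a 20 where 6.38 were expected (3.13, 1.91 to 4.84), and Lmx1b and Sox6 26 where 11.9 were expected (2.19, 1.43 to 3.21). Nr4a2 with Lmx1b (2.82) and En1 with Sox6 (2.54) were the others.

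In all CCI neurons at 1000 UMIs, 4 of 5 pairs were above: Nr4a2 with Lmx1a (15 nuclei, 6.31 expected, ratio 2.38), Nr4a2 with Sox6 (17 and 8.24, 2.06), Lmx1a with Lmx1b (18 and 6.39, 2.82) and Lmx1b with Sox6 (15 and 8.35, 1.80). The pair that was not above in either library was Lmx1a with Sox6, with 15 nuclei in WT where 14.2 were expected (1.05, 0.59 to 1.74) and 10 in CCI where 15.4 were expected (0.65, 0.31 to 1.19). Within neurons with Slc6a3 or Th UMIs none of the 5 WT or 3 CCI pairs was above or below the expected number. There Nr4a2 and Sox6 shared 19 WT nuclei where 17 were expected and 7 CCI nuclei where 6.44 were expected.

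At 5000 UMIs in the CCI library, 18 of 25 pairs were above in all neurons, with a median ratio of 2.25 (range 0.555 to 4.19). The highest were En1 with Lmx1b (82 nuclei, 19.6 expected, ratio 4.19) and En1 with Nr4a2 (62 and 14.9, 4.15). Pitx3 and Sox6 shared 17 nuclei where 5.25 were expected (3.24, 1.88 to 5.18). Lmx1a with Sox6 stood at 97 nuclei where 92.7 were expected (1.05, 0.85 to 1.28), and the 3 pairs of Otx2 that could be read, with Lmx1a, Lmx1b and Sox6, had ratios of 0.845, 0.555 and 0.587 with intervals that include 1.

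The dopaminergic subclusters held 341 CCI nuclei, fewer than the 473 CCI neurons with Slc6a3 or Th UMIs at that depth. The 473 thus include nuclei of other subclusters, and the part of this mixture in the ratios was not tested. Within the 473, the median ratio over 28 pairs was 1.41, and 7 pairs were above. They were Nr4a2 with En1 (59 nuclei, 40.8 expected, ratio 1.45), Lmx1b (1.34) and Sox6 (1.36), En1 with Lmx1b (71 and 43.0, 1.65) and Sox6 (1.40), Lmx1b with Sox6 (1.35) and En2 with Lmx1b (1.75). Lmx1a with Sox6 had 35 nuclei where 46.3 were expected (0.76, 0.53 to 1.05), and Lmx1a with Lmx1b 38 where 38.6 were expected (0.99, 0.70 to 1.35). In neurons without these UMIs, Lmx1a and Lmx1b shared 168 nuclei where 46.1 were expected (3.65, 3.12 to 4.24), so this pair was above the expected number in neurons without Slc6a3 or Th UMIs and close to it in neurons with them.

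**Figure D5:**
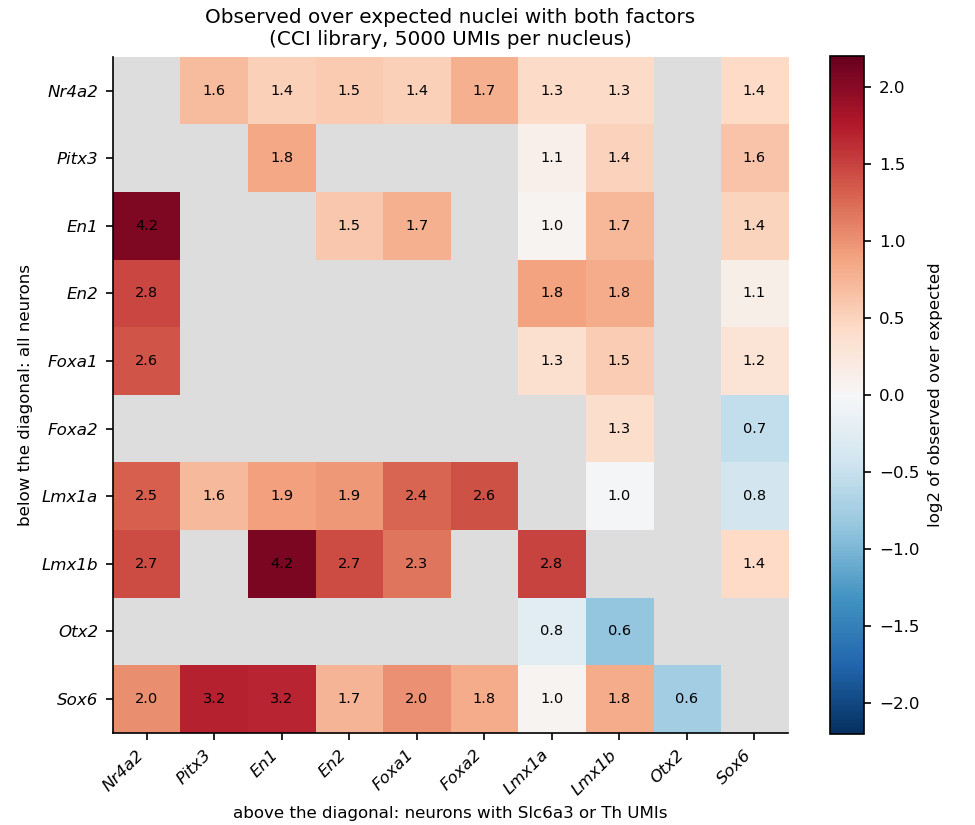
Observed over expected number of nuclei with a UMI of both factors, in the CCI library at 5000 UMIs per nucleus, for all neurons below the diagonal and for neurons with a Slc6a3 or Th UMI above it. Colour is the log2 of the printed ratio and grey marks pairs with fewer than 5 nuclei expected; the median is 2.25 below the diagonal and 1.41 above it, and Lmx1a with Sox6 has 1.05 and 0.756.

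Pairs of a factor with a dopamine or transmitter gene were counted in the same way. In all WT neurons at 1000 UMIs, Nr4a2 and Ddc shared 61 nuclei, 3.05 times the expected number, and in CCI 40 where 8.67 were expected (4.61). Nr4a2 and Gad2 shared 4 WT nuclei where 17.1 were expected (0.23) and 5 CCI nuclei where 15.3 were expected (0.33). Sox6 and Slc17a6 shared 15 WT nuclei where 40.1 were expected (0.37) and 27 CCI nuclei where 44.5 were expected (0.61). Lmx1a and Slc17a6 were near independence, with 17 WT nuclei where 16.7 were expected and 41 CCI nuclei where 34.1 were expected.

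Few nuclei showed more than 1 factor at 1000 UMIs. Of the WT neurons with Slc6a3 or Th UMIs, 251 of 511 (49.1%) had no UMI of any of the 10 factors, 187 had 1 factor, 66 had 2, 6 had 3 and 1 had 4. In CCI 144 of 275 (52.4%) had none, 94 had 1, 30 had 2 and 7 had 3. Of neurons without these UMIs, 84.7% in WT and 86.9% in CCI had none. At this depth a nucleus without a factor's UMI cannot be taken as lacking the factor.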

How the data were processed

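The authors deposited gene-by-barcode tables of raw UMI counts, 1 for each library, made with Cell Ranger (7.1.0, per the file headers) on build mm10, with Seurat also named, per the submitters' processing notes. Whether intronic reads were counted is not given in the sources used here. Barcodes with at least 200 genes, 500 UMIs and at most 20% mitochondrial UMIs were kept, and Scrublet in Scanpy 1.11.5, run per library, called 1233 WT and 967 CCI barcodes doublets, which were removed. Neurons were clustered (scikit-learn 1.9.0, leidenalg 0.10.2) without the 10 factors, Slc6a3 and Th, and subclusters were named from marker lists. The dopaminergic list used for naming included Slc6a3 and Th. Ratios carry exact conditional intervals and shares Clopper-Pearson intervals at 95% (SciPy 1.17.1), a count of 0 was set at 3 UMIs as a bound, and genes needed 20 UMIs. The ratio code was tested on simulated data. No test between groups was possible with 1 library each. Other thinning depths, gates, filters, doublets kept and scalings were tried. Besides the 10 factors, up to 6 genes of each list were named, those with the most UMIs in neurons, and the 3 genes most alike across subclusters. Otx2os1 and the other genes set beside the factors in n2 and n17 were chosen after their values were seen. The factors and lists were chosen with earlier results of these data known. A few genes that these rules name are not reported here.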

Additional observations from a re-analysis of the deposited data

How the results depend on the processing

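Across 310 recomputed values, 277 kept their direction and stayed within the spread or fold set for them, 32 moved and 1 reversed. The number of factors over 2-fold higher in neurons with Slc6a3 or Th UMIs was 8 in each library and stayed between 7 and 9 in WT and between 8 and 9 in CCI under all settings run. The number past 1.5-fold between libraries, 2, became 5 without thinning, 5 with at least 2 UMIs of Slc6a3 and Th, 5 with Slc6a3 alone, 6 with Th alone, 4 with doublets kept and 1 in the dopaminergic subclusters. Pairs above the expected number, 5 in WT, became 17 without thinning, 2 at 500 UMIs and 9 at 2000. In CCI they went from 4 to 27 without thinning, 0 at 500 UMIs, where no pair reached 5 expected nuclei, 7 at 2000 and 18 at 5000. More pairs reached 5 expected nuclei where more UMIs were kept; the cause of the higher counts was not tested. The log2 ratio of Lmx1a between libraries, 0.78, reversed to -0.016 at 500 UMIs; the cause was not tested. The settings for 5000 UMIs and for the dopaminergic subclusters were added after seeing the data. No paired analysis was possible because each group is 1 library, and for the same reason no replicate could be left out. Depth limits Pitx3, En2, Foxa1, Foxa2 and Otx2 the most, each with 16 or fewer UMIs in the thinned neurons with Slc6a3 or Th UMIs of a library.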
